A study of Mus musculus with 6 samples.

Results

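The genes described here encode integrins and the adaptors that tie them to actin. They comprise the integrin beta subunit gene Itgb1, the alpha subunit genes Itga4, Itga5, Itga6 and Itgav, the melusin gene Itgb1bp2, the integrin-linked kinase gene Ilk, the PINCH genes Lims1 and Lims2 and the alpha-parvin gene Parva. They were taken by symbol, and each matched a single row, giving 10 of the 30323 gene rows measured. The data are RNA levels of whole hearts taken from mouse embryos of day 9.5, with 3 MCKO and 3 control libraries. MCKO stands for a knockout of Cdc42 in the myocardium, labelled with the genotype CDC-42 KO, and the controls are labelled C57BL/6 ctrl. The labels name neither the driver of the deletion nor its exon, nor whether the controls carry a floxed allele or Cre. The submitters describe 3 hearts in each set. No label links a library to its heart or litter, so p-values here reflect the spread among libraries, part of which may be technical.

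Integrins are receptors made of an alpha and a beta subunit that bind the extracellular matrix outside the cell and actin-linking proteins inside it. The beta subunit encoded by Itgb1 pairs with many alpha subunits, among them those of Itga4, Itga5, Itga6 and Itgav. Inside the cell ILK, a pseudokinase, binds a PINCH adaptor and a parvin, and this complex links beta subunit tails to actin filaments. In the embryonic heart these proteins hold muscle and endocardial cells to the cardiac jelly and basement membranes, and in mice Itga4 is needed for the epicardium to stay on the heart surface.

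The libraries held 23883877 to 34246477 estimated counts in MCKO and 19256840 to 32169289 in controls, and 3 counts in a library correspond to at most 0.156 CPM (counts scaled to a common library total). Levels below are normalised CPM, which are scaled to the TMM-scaled library size, so that they are on the same scale as the fold changes. Cdc42 had 248 ± 4.37 normalised CPM in MCKO and 392 ± 20.9 in controls (SD, n = 3 each), a log2 fold change of -0.66 (SE 0.0466, edgeR adjusted p = 2.93e-06). All 12 markers of heart muscle passed the filter on low counts. Of all 14697 tested genes, 58.4% were called at an adjusted p under 0.05 by edgeR's quasi-likelihood test, 29.3% higher and 29.1% lower in MCKO. Of the 10 members, all of which were tested, 5 were called: Lims2, Itga6, Itgb1 and Ilk rose and Itga4 fell. A share of 5 in 10 is close to that background. With library totals as the only scaling, 3 rose and 2 fell, beside 59.6% of all tested genes called, 25.4% higher and 34.2% lower; this scaling moved the median log2 fold change of all genes by -0.061. At an adjusted p under 0.01, 4 members were called, beside 45.3% of all tested genes. Without MCKO replicate 1, 2 or 3 in turn, 4, 5 and 4 members were called, beside 51.0%, 49.7% and 51.3% of all tested genes. Without control replicate 1, 2 or 3 in turn, 4, 5 and 7 members were called, beside 51.1%, 57.4% and 58.3%. DESeq2 called 6 members, beside 44.7% of its tested genes, and limma-voom 6, beside 58.9%. At least 2-fold changes were called for 11.0% of tested genes and for 3 members, Lims2, Itga6 and Itga4. The median log2 fold change was 0.16 over the members and 0.00057 over all tested genes. The 2 groups did not overlap for 6 members, against 64.7% of all tested genes.

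**Figure D1:**
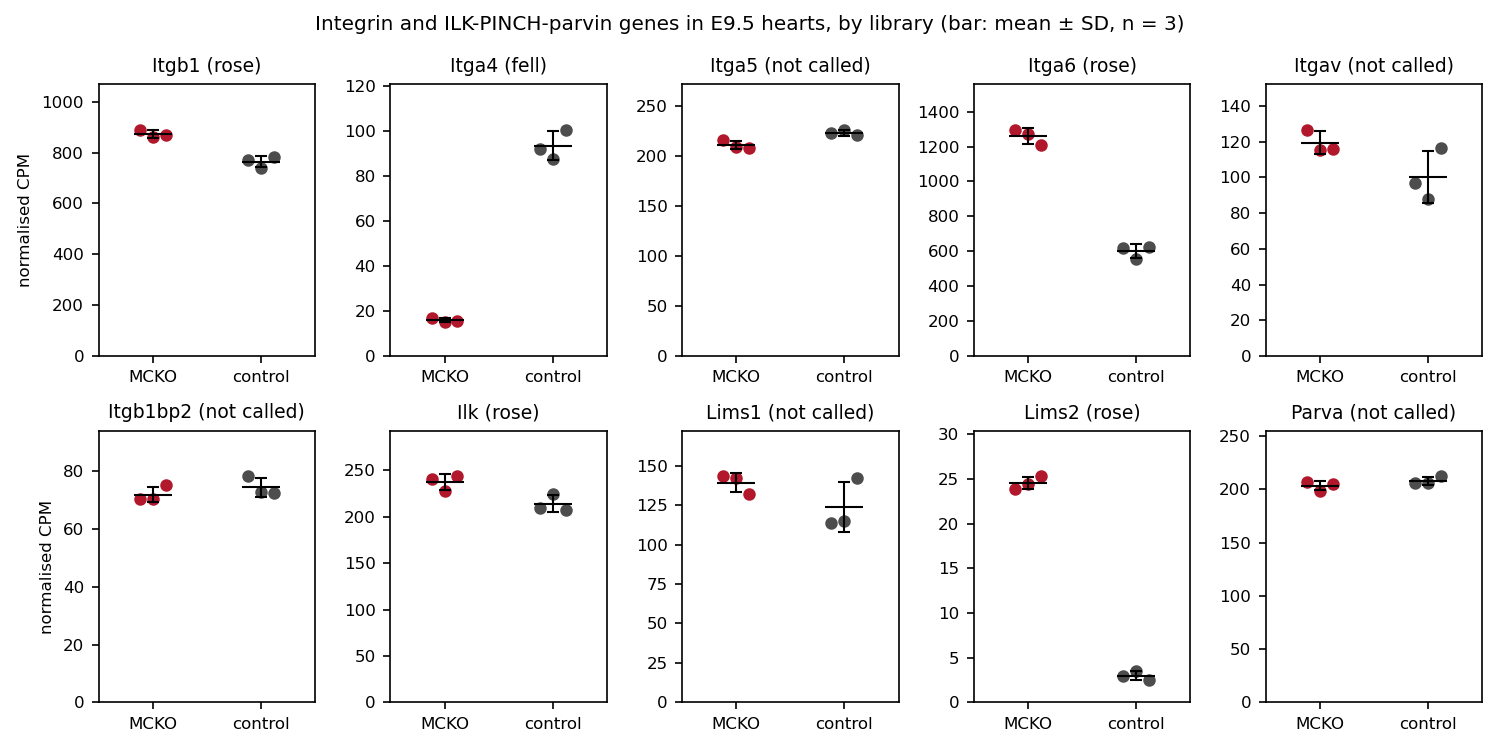
Normalised CPM of each of the 10 members (y axis, from 0, a separate scale per panel) in each MCKO library (red) and each control library (grey), with the mean ± SD of 3 libraries. Itga4 lies between 15.3 and 17.0 in MCKO and between 87.6 and 100.4 in controls, whereas Parva overlaps between the groups.

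Among the alpha subunit genes, Itga4 fell and Itga6 rose, while Itga5 and Itgav were not called. Itga4 encodes the alpha subunit that binds VCAM1 and fibronectin. It had 17.0, 15.3 and 15.6 normalised CPM in the MCKO libraries, against 92.0, 87.6 and 100.4 in the control libraries. Every MCKO library lay far below every control library. On the log2 scale it fell by 2.55 (SE 0.0693, edgeR adjusted p = 7.53e-09), which is 5.85-fold lower, and only 95 of the 14697 tested genes had a more negative one. Itga4 (ENSMUSG00000027009) is a protein-coding gene on the plus strand of chromosome 2 at 79255426 to 79333123 in GRCm38. Its exons overlap those of Cerkl on the other strand, but Cerkl had between 0 and 5 counts in every library.

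In bulk tissue, fewer cells of a type and less RNA per cell cannot be told apart, and markers of epicardium and mesenchyme moved with Itga4. Of 6 epicardial markers, 5 fell and none rose, with a median log2 fold change of -1.47, and their summed level was 72.5 to 73.9 normalised CPM in MCKO and 174 to 184 in controls. The log2 fold change was -2.63 (SE 0.0885) for Lrrn4, a mesothelial membrane protein gene, and -2.07 (SE 0.0846) for Upk3b, a uroplakin gene of mesothelium. Wt1, which encodes an epicardial transcription factor, had -0.22 (SE 0.0529). Of 8 mesenchyme markers, 6 fell and none rose, with a median of -0.73 and a summed level of 250.3 to 257 in MCKO and 507 to 541 in controls. Both counts stand beside 29.1% of all tested genes called lower. The part of epicardial and mesenchyme cells in the value of Itga4 was not tested.

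Itga5, the alpha subunit of the main fibronectin receptor, stayed close to its control level. It had 215, 209 and 208 normalised CPM in MCKO, against 223, 226 and 220.4 in controls. The MCKO libraries were all lower, by a small margin, and the gene was not called, with a log2 fold change of -0.08 (SE 0.0371, edgeR adjusted p = 0.0884). With library totals as the only scaling the value was -0.14, with an edgeR adjusted p of 0.00898. Itga5 (ENSMUSG00000000555) lies on chromosome 15, minus strand, at 103344286 to 103366763. Thus of 2 alpha subunits that bind fibronectin with the Itgb1 product, Itga4 was called lower and Itga5 was not. The 250 bases upstream of the RefSeq transcription start of these 2 genes (GRCm38.p6) are shown because the fold changes of the genes differ while they share a ligand. Capitals mark the GC box letters GGGCGG or their reverse complement CCGCCC.
Itga4 (chr2:79255176-79255425, plus strand): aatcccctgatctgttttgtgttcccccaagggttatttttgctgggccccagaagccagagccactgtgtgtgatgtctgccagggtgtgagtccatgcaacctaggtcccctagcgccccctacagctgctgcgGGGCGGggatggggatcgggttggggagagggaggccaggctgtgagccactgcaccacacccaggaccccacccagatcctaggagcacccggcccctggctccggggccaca
Itga5 (chr15:103366792-103367041, minus strand): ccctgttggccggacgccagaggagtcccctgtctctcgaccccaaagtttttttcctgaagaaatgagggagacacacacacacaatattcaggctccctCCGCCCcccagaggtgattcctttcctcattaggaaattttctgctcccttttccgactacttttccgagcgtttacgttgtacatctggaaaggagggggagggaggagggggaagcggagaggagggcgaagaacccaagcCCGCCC

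Both strands of each window were searched. Itga4 held 1 GC box, 114 bases before the start, and Itga5 held 2, at 149 and 6 bases. Of 32851 RefSeq upstream windows of the same length, 32.7% held a GC box. Neither window held the core letters ACGTG of hypoxia-factor sites (16.6% of all windows), the GATA letters AGATAA (9.99%) or the TATA box letters TATAAA (12.4%). The bases G and C made up 64.0% of the Itga4 window and 55.6% of the Itga5 window. A match is a description of letters only, and no binding or accessibility was measured. RefSeq entries were found for 6 of the 10 members.

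Itga6, which encodes a laminin receptor subunit, rose. It had 1296, 1272 and 1209.7 normalised CPM in MCKO, against 618, 554 and 626 in controls. The lowest MCKO library was far above the highest control library. On the log2 scale it rose by 1.07 (SE 0.0542, edgeR adjusted p = 3.71e-07), which is 2.10-fold. Itga6 (ENSMUSG00000027111) is on the plus strand of chromosome 2 at 71745616 to 71858416. It can also pair with the product of Itgb4, which had 1.36 ± 0.0958 normalised CPM in MCKO and 1.04 ± 0.283 in controls and was not called. Of 10 endocardial and endothelial markers, 8 rose and 2 fell, with a median log2 fold change of 0.43. Their summed level was 1315 to 1337 normalised CPM in MCKO and 1123 to 1138 in controls. The 2 that fell were Npr3, at -0.92 (SE 0.0529) on the log2 scale, and Tek, at -0.70 (SE 0.0507). Of 7 primitive red cell markers all rose, with a median of 1.07 and a summed level of 6062 to 6465 in MCKO and 2863 to 3085 in controls. All 6 foregut endoderm markers rose too, with a median of 1.77 and a summed level of 263 to 287 in MCKO and 149.5 to 164 in controls. Most of that sum came from the keratin genes Krt8 and Krt18. Krt8 had 169 ± 9.80 normalised CPM in MCKO and 106 ± 7.01 in controls, and Krt18 had 92.6 ± 2.63 in MCKO and 49.5 ± 2.14 in controls. Epcam was the highest of the other markers in MCKO, at only 5.53 ± 0.403, against 0.879 ± 0.0864 in controls. Of the 12 heart muscle markers, 5 rose and 2 fell, with a median of 0.14 and a summed level of 33197 to 34587 in MCKO and 26549 to 29630 in controls. Of all tested genes, 29.3% were called higher and 29.1% lower. The share of heart muscle markers called is close to the 58.4% of all tested genes called in either direction. The part of these cell types in the rise of Itga6 was not tested.

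Itgav encodes an alpha subunit that pairs with the products of Itgb1, Itgb3, Itgb5, Itgb6 and Itgb8 and binds RGD ligands such as vitronectin. It had 127, 115 and 116 normalised CPM in MCKO, against 96.7, 87.8 and 117 in controls. The groups overlapped, since control replicate 3 was within the MCKO range, below MCKO replicate 1 and slightly above the other two. Its log2 fold change of 0.25 (SE 0.0995) had an edgeR adjusted p of 0.0643, and without control replicate 3 it was 0.37, with an edgeR adjusted p of 0.000138. Itgav (ENSMUSG00000027087) is on the plus strand of chromosome 2 at 83724397 to 83806916, and its exons overlap those of Gm13684 on the other strand. Of its other partners, Itgb3 had 61.8 ± 2.33 normalised CPM in MCKO and 60.8 ± 2.81 in controls, and Itgb5 had 57.1 ± 2.97 in MCKO and 53.9 ± 2.81 in controls, and neither was called. Itgb8, which encodes a beta subunit that binds latent TGF-beta, fell to 6.44 ± 0.923 normalised CPM in MCKO, against 12.4 ± 1.35 in controls (log2 fold change -0.94, SE 0.126, edgeR adjusted p = 0.00018).

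Itgb1, the common beta subunit, rose slightly. It had 889.8, 859.6 and 868 normalised CPM in MCKO, against 771, 739 and 783 in controls. Every MCKO library was above every control library, with a log2 fold change of 0.19 (SE 0.0389, edgeR adjusted p = 0.00234). Itgb1 (ENSMUSG00000025809) is on the plus strand of chromosome 8 at 128685654 to 128733200. Itgb1bp2 encodes melusin, a muscle protein that binds the tail of this subunit. It had 70.2, 70.4 and 75.0 normalised CPM in MCKO, against 78.2, 72.7 and 72.4 in controls. The groups overlapped, with a log2 fold change of -0.05 (SE 0.0508) and an edgeR adjusted p of 0.418. Itgb1bp2 (ENSMUSG00000031312) is on the plus strand of chromosome X at 101449088 to 101453541.

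In the ILK-PINCH-parvin complex the largest difference was in Lims2, which encodes PINCH2. It had 23.9, 24.4 and 25.3 normalised CPM in MCKO, against 3.01, 3.48 and 2.46 in controls. These levels rest on 589 to 803 counts per MCKO library and 68 to 83 counts per control library. The groups were far apart, with a log2 fold change of 3.07 (SE 0.111, edgeR adjusted p = 4.50e-08), an 8.37-fold rise that only 87 of the 14697 tested genes exceeded. Lims2 (ENSMUSG00000024395) is on the plus strand of chromosome 18 at 31922290 to 31958619. Its exons overlap those of Gpr17, a receptor gene on the other strand, which rose as well, with 1.74 ± 0.370 normalised CPM in MCKO and 0.213 ± 0.0369 in controls (log2 fold change 3.02, SE 0.290, edgeR adjusted p = 2.18e-05). The library kit keeps the strand, but whether the counting used it is not given in the sources used here, so reads of these 2 genes may not be fully separated. The 6 foregut endoderm markers rose in the same libraries. Their log2 fold changes ran from 0.67 (SE 0.0610) for Krt8 to 2.64 (SE 0.151) for Epcam, an epithelial adhesion gene. All 7 primitive red cell markers rose as well, and of 10 endocardial and endothelial markers 8 rose and 2 fell. Of 12 heart muscle markers 5 rose and 2 fell. On the epicardial list 5 of 6 fell, on the mesenchyme list 6 of 8 fell, and none rose on either. Of all tested genes, 29.3% were called higher and 29.1% lower. The part of any of these cell types in the rise of Lims2 was not tested.

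Lims1, which encodes PINCH1, was not called. It had 143, 142 and 132 normalised CPM in MCKO, against 114, 115 and 142 in controls. Control replicate 3 was again in the MCKO range. Its log2 fold change of 0.17 (SE 0.0855) had an edgeR adjusted p of 0.123, and without control replicate 3 it was 0.28, with an edgeR adjusted p of 0.000251. Lims1 (ENSMUSG00000019920) is on the plus strand of chromosome 10 at 58323466 to 58424691. Levels of different genes can be compared only per length, so the share of Lims2 in the 2 PINCH genes was taken from normalised CPM per kilobase of coding transcript. With the median coding length of each gene the Lims2 share was 29.4, 30.1 and 32.3% in MCKO, against 6.20, 7.01 and 4.14% in controls. The shares did not overlap (exact permutation test, 2-sided p = 0.1, the smallest that 3 against 3 allows). With the longest coding transcript the shares were 29.0 ± 1.49% in MCKO and 5.39 ± 1.38% in controls (SD, n = 3 each).

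Ilk rose by a small amount. It had 241, 227 and 244 normalised CPM in MCKO, against 209.8, 224 and 207 in controls. The highest control library came close to the lowest MCKO library. On the log2 scale it rose by 0.15 (SE 0.0465, edgeR adjusted p = 0.0201). The call was lost with library totals only, where the value was 0.088 (edgeR adjusted p = 0.121). It was also lost without MCKO replicate 1, MCKO replicate 3 or control replicate 1, where the edgeR adjusted p was 0.072, 0.076 and 0.0796. Ilk (ENSMUSG00000030890) is on the plus strand of chromosome 7 at 105736592 to 105742925, and its exons overlap those of Rrp8 and Taf10 on the other strand. Rrp8, a nucleolar methyltransferase gene, had 35.2 ± 1.15 normalised CPM in MCKO and 40.2 ± 0.836 in controls, and Taf10, a general transcription factor gene, 53.0 ± 4.84 in MCKO and 52.6 ± 5.50 in controls.

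Parva, the actin-binding partner of ILK, had 207, 199 and 205 normalised CPM in MCKO, against 206, 206 and 212 in controls. The groups overlapped, with a log2 fold change of -0.03 (SE 0.0383, edgeR adjusted p = 0.515). Parva (ENSMUSG00000030770) is on the plus strand of chromosome 7 at 112427505 to 112591692. Parvb, the beta-parvin gene, is not a member but completes the family. It rose to 157 ± 3.04 normalised CPM in MCKO, against 126 ± 4.94 in controls (log2 fold change 0.31, SE 0.0435, edgeR adjusted p = 0.000224). Parvg, the parvin gene of blood cells, was at 0.658 ± 0.161 in MCKO and 0.889 ± 0.103 in controls and was not called. Rsu1, which binds PINCH1, was not called either, at 65.4 ± 0.145 in MCKO and 63.5 ± 1.49 in controls. Per median coding length, Parva made up 68.6 ± 0.184% of the parvin genes in MCKO and 73.4 ± 0.982% in controls, and Parvb 31.1 ± 0.106% in MCKO and 26.2 ± 1.02% in controls (SD, n = 3 each). With the longest coding transcript Parvb made up 47.4 ± 0.120% in MCKO and 41.5 ± 1.28% in controls. The MCKO shares were all beyond the control shares (exact permutation test, 2-sided p = 0.1 for each, the smallest possible).

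**Figure D2:**
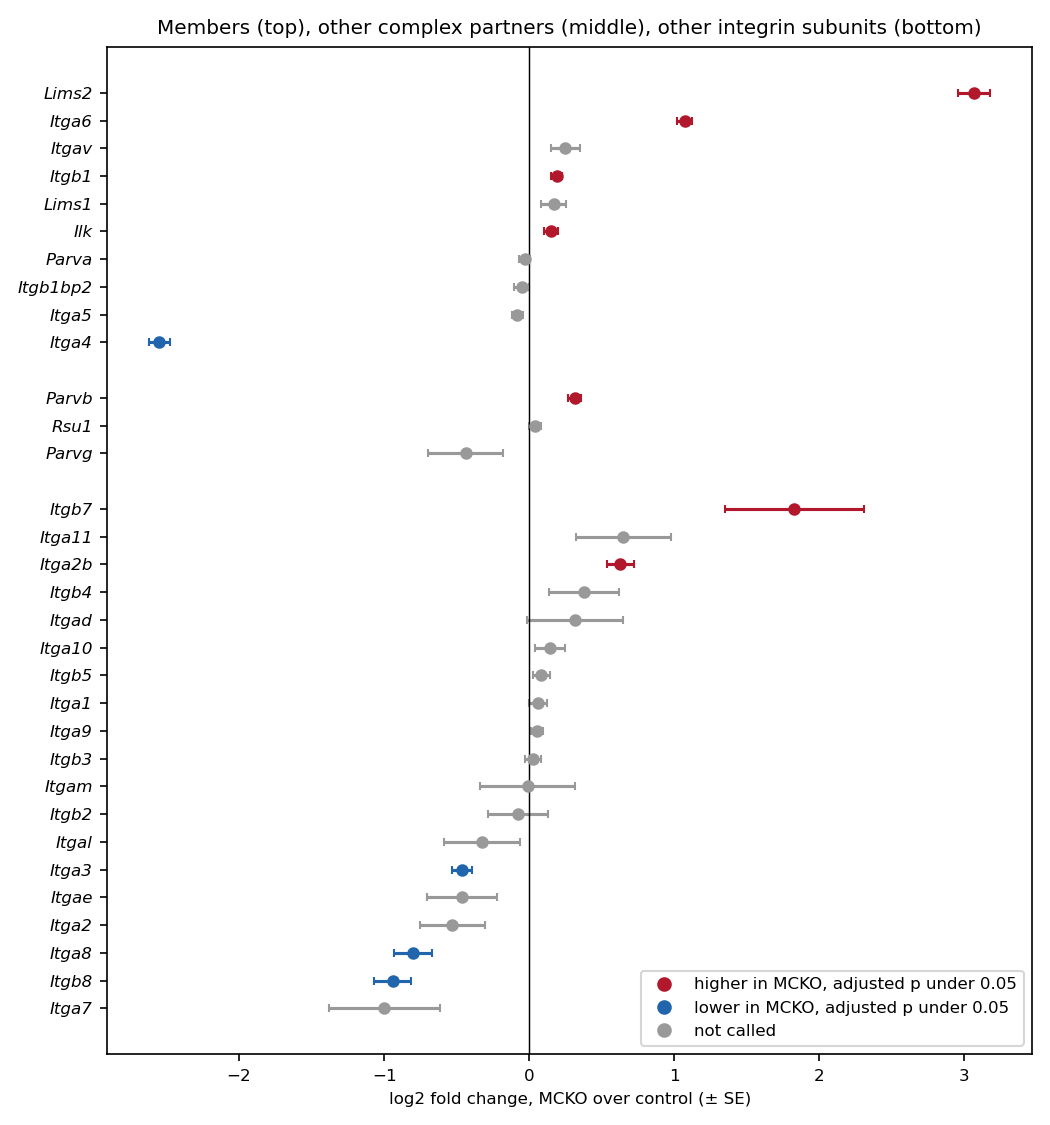
Log2 fold change, MCKO over control, with its SE for the 10 members (top), 3 other partners of the complex (middle) and the 19 tested other integrin subunits (bottom). Red points were called higher, blue points lower and grey points not called. Lims2 lies at 3.07 and Itga4 at -2.55, and of the 19 other subunits 14 are grey, between -0.998 and 0.65.

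Per length, the order of the members depended on the group and on the transcript length used. With the longest coding transcript, Itga6 stood first in MCKO at 292 ± 10.4 normalised CPM per kilobase, followed by Itgb1 at 229 ± 4.09 and Ilk at 132 ± 4.86. In controls Itgb1 stood first at 200.4 ± 5.98, followed by Itga6 at 139 ± 9.20 and Ilk at 119 ± 5.09. Itgb1bp2, Itga5, Parva, Lims1 and Itgav followed in this order in both groups. At the low end the order turned round, with Lims2 at 13.1 ± 0.377 above Itga4 at 1.63 ± 0.0924 in MCKO, and Lims2 at 1.59 ± 0.273 below Itga4 at 9.56 ± 0.670 in controls. No neighbours in either order overlapped in range on this scale. With the median coding length Itgb1 stood first in both groups, at 386 ± 6.89 in MCKO and 338 ± 10.1 in controls, and the turn of Lims2 and Itga4 was kept. On that scale Itgav and Itga6 overlapped in controls, as did Parva and Lims1 in MCKO. The median length of the 5 coding transcripts of Itgav is 688 bases, against 7054 for the longest, so the level of Itgav per length differs about as much between these choices.

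The make-up of the 4 alpha subunits differed between the groups under both lengths. The size of the shares rests on the length taken, chiefly through Itgav, with a median of 688 bases against 7054 for the longest. The median length gives a larger Itgav share and a smaller Itga6 share than the longest transcript does. With the median coding length, Itga6 made up 57.0, 58.5 and 57.2% in MCKO, against 42.5, 41.5 and 39.6% in controls. All MCKO libraries were above all controls. Itga4 made up 0.310 ± 0.00968% in MCKO and 2.73 ± 0.0527% in controls, Itga5 9.14 ± 0.177% in MCKO and 14.6 ± 1.42% in controls, and Itgav 33.0 ± 0.807% in MCKO and 41.5 ± 2.63% in controls (SD, n = 3 each). No share overlapped between the groups (exact permutation test, 2-sided p = 0.1 for each of the 4, and 0.1 adjusted over them, the smallest possible). With the longest coding transcript, Itga6 made up 81.4 ± 0.381% in MCKO and 65.0 ± 1.14% in controls, and Itgav 4.72 ± 0.163% in MCKO and 6.64 ± 0.687% in controls. Itga5 made up 13.4 ± 0.275% in MCKO and 23.9 ± 1.56% in controls on that scale, and Itga4 0.454 ± 0.0188% in MCKO and 4.47 ± 0.144% in controls. Shares of a sum are tied to each other, so a lower share is not a lower level. Neither Itga5 nor Itgav was called, and the log2 fold change of the Itgav level was above 0, at 0.25.

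**Figure D3:**
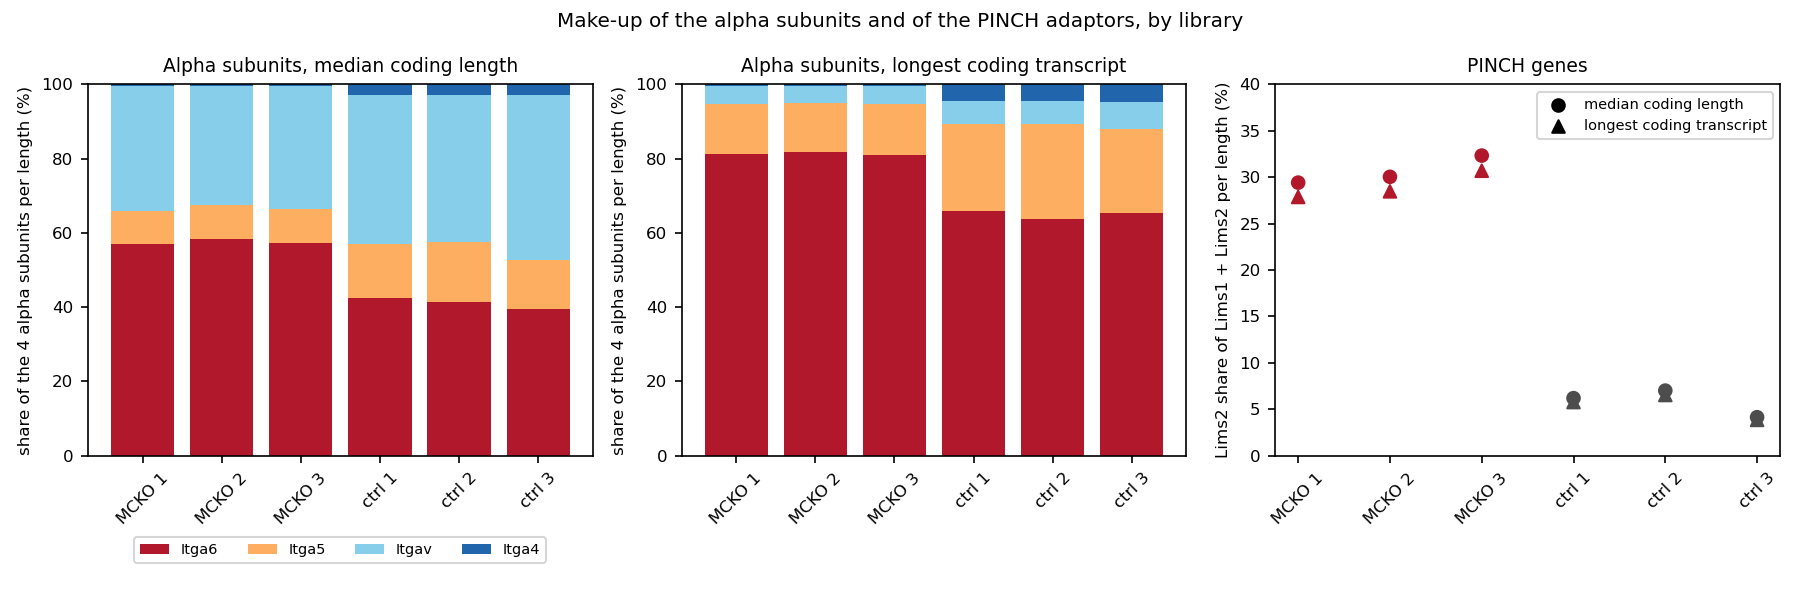
Share of each of the 4 member alpha subunits in their sum per length, by library, with the median coding length (left) and the longest coding transcript (middle), and the Lims2 share of the PINCH genes (right, circles and triangles for these lengths). The MCKO libraries stand left of the controls. Itga6 takes 57.0 to 58.5% in MCKO and 39.6 to 42.5% in controls in the left panel. In the middle panel it takes 81.1 to 81.8% in MCKO and 63.8 to 66.0% in controls.

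Of the 22 other integrin subunit genes, 19 were tested, 2 rose, 3 fell and 14 were not called, with a median log2 fold change of 0.025. The share called was 5 of 19, beside 58.4% of all tested genes. Some of the 14 had few counts, such as Itgam with 7 to 15 per library, which limits their calls. Others did not, such as Itga9 with 1626 to 2949, and both examples were named after their values were seen. With library totals only, 2 rose and 5 fell, beside 25.4% of all tested genes called higher and 34.2% lower. Itga2b, the alpha subunit of platelets and their precursors, rose to 28.9 ± 0.678 normalised CPM in MCKO, against 18.8 ± 2.74 in controls (log2 fold change 0.63, SE 0.0932). Megakaryocyte markers were higher in the same libraries, among them Pf4, a platelet chemokine gene, at 8.44 ± 0.313 in MCKO and 4.32 ± 0.157 in controls. Of the 8 megakaryocyte and macrophage markers, 6 were tested, 3 rose and 1 fell, beside 58.4% of all tested genes called. The summed level of the 8 markers was 20.8 to 21.3 in MCKO and 14.7 to 15.5 in controls. The macrophage gene Adgre1 had at most 3 counts in any library. The part of these cells in the rise of Itga2b was not tested. Itga8, a subunit that binds nephronectin, fell to 3.84 ± 0.474 in MCKO, against 6.72 ± 0.594 in controls. Itga3, a laminin-binding subunit, fell to 25.5 ± 1.89 in MCKO, against 35.0 ± 1.72 in controls (log2 fold change -0.46, SE 0.0691). Of the other laminin-binding subunits on this list, Itga7 had a log2 fold change of -0.998 (SE 0.382, edgeR adjusted p = 0.0552), Itga2 -0.53 (SE 0.223) and Itga1 0.06 (SE 0.0595), and none of these 3, named after their values were seen, was called. Itga7 was called lower without control replicate 2 (-1.22, edgeR adjusted p = 0.0224), with library totals only, with DESeq2 and with limma-voom, and Itga2 without MCKO replicate 1 (-0.80, edgeR adjusted p = 0.0137) and with library totals only. The other subunit called higher was Itgb7, a partner of the Itga4 product named after its values were seen. It was at 0.459 ± 0.0652 in MCKO and 0.120 ± 0.0870 in controls. These levels rest on 11 to 13 counts per MCKO library and 1 to 6 per control library, and the control level is near that of 3 counts.

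Among 40 genes of integrin activators and adhesion adaptors, 19 rose, 6 fell and 15 were not called, with a median of 0.14. With library totals only, 16 rose and 11 fell, beside 25.4% of all tested genes called higher and 34.2% lower. The share called was 25 of 40, beside 58.4% of all tested genes. Nedd9, a scaffold at focal adhesions, rose to 45.1 ± 1.96 normalised CPM in MCKO, against 19.3 ± 0.260 in controls (log2 fold change 1.23, SE 0.0555). Tgfb1i1, which encodes the paxillin relative Hic-5, rose by 0.57 (SE 0.0586) on the log2 scale. Rap1a, a small GTPase gene of integrin activation, had a log2 fold change of -0.45 (SE 0.0700), Tns1, a tensin gene, -0.39 (SE 0.0400) and Arhgef6, an exchange factor gene that binds parvin, -0.38 (SE 0.120), and all 3 fell. The call of Arhgef6 (edgeR adjusted p = 0.0225) was lost without MCKO replicate 1, MCKO replicate 3 or control replicate 3 and with DESeq2, with adjusted p-values up to 0.0862. The named changes in this list were smaller than those of Itga4 and Lims2.

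Ligand genes of integrins went both ways. Of 24, 23 were tested, 11 rose, 6 fell and 6 were not called, with a median of 0.088. The share called was 17 of 23, beside 58.4% of all tested genes. With library totals only, 11 rose and 8 fell, beside 25.4% of all tested genes called higher and 34.2% lower. Fn1, the fibronectin gene and a ligand gene of Itga4, Itga5 and Itgav products, was at 2440.5 ± 60.9 normalised CPM in MCKO and 2444 ± 46.4 in controls and was not called. Vcam1, the cell-surface ligand of the Itga4 product, fell to 104 ± 1.94 in MCKO, against 136 ± 7.78 in controls (log2 fold change -0.39, SE 0.050, edgeR adjusted p = 0.000137). These 2 ligand genes of Itga4 were named after their values were seen. Lama5, a laminin alpha chain gene and a ligand gene of Itga6, rose to 272 ± 8.84 in MCKO, against 143 ± 17.1 in controls. Edil3, which encodes an RGD protein bound by Itgav receptors, rose by 1.19 (SE 0.0727) and Mfge8, a related protein gene, by 0.96 (SE 0.0750). The largest falls were in Postn, the periostin gene, at -3.13 (SE 0.105), Tnc, the tenascin C gene, at -1.09 (SE 0.0423), and Fbn1, the fibrillin gene, at -0.78 (SE 0.0382). Postn also stands on the mesenchyme list, of which 6 of 8 markers fell, beside 29.1% of all tested genes called lower.

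**Figure D4:**
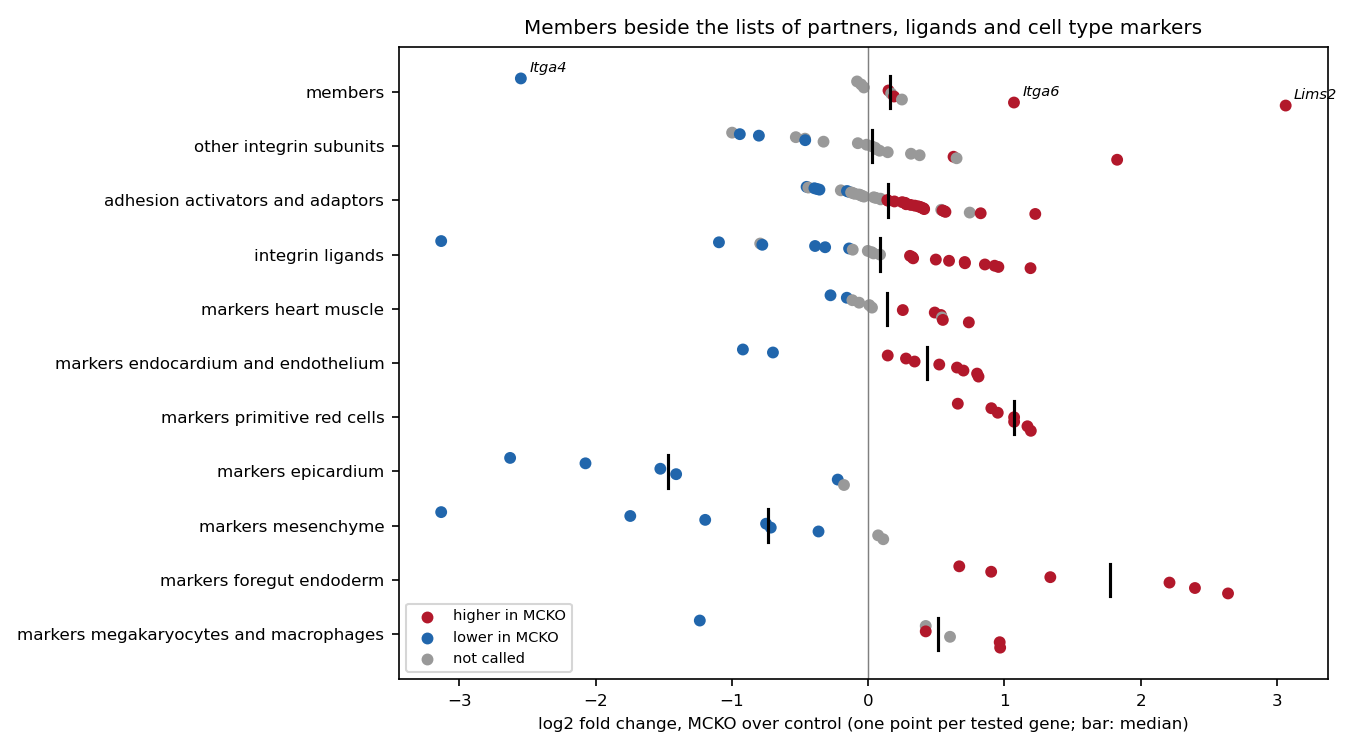
Log2 fold change, MCKO over control (x axis), of every tested gene of the members, the lists of other subunits, adaptors and ligands, and the cell type marker lists (rows), with the median of each row as a bar. Red points were called higher, blue lower and grey not called. Itga4 at -2.55 lies close to the lowest epicardial marker at -2.63 and below the epicardial median of -1.47, and the median of the members is 0.16.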

How the data were processed

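The deposited table holds whole-number estimated counts for Ensembl genes, made by the authors with kallisto and build mm10, per the submitters' processing notes; no source used here gives versions, transcript set or strand setting. The kit was stranded TruSeq mRNA, per the labels. Control columns carry the sample titles; knockout columns have CKO where the titles have MCKO. All 6 libraries entered edgeR 4.0.16 (R 4.3.3): filterByExpr, TMM, robust quasi-likelihood fits on group, 2-sided tests, Benjamini-Hochberg adjustment over 14697 genes, called under 0.05. The fit was tested on simulated counts in which only a small part of the genes differed. That test does not cover data where 58.4% of tested genes are called. SE is the log2 fold change divided by the root of F. Shares used exact permutation tests (SciPy 1.17.1). Coordinates and lengths came from GENCODE M21 (GRCm38, also called mm10). No member had a near-identical transcript copy (minimap2 2.31, 95% identity over 80% of the length). The SDs and SEs reflect the spread among libraries, part of which may be technical.

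Members and lists were chosen with earlier results of these data known. Named were all members, Cdc42, Parvb, Parvg, Rsu1, and per list the 3 called genes with the largest rise and fall among those with at least 5 normalised CPM in a group. A gene that this rule names is not reported here. Alternatives were other size factors, library totals, filters, DESeq2 1.42.0, limma 3.58.1, a replicate block, a threshold of 0.01, each library left out and another transcript length.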

Additional observations from a re-analysis of the deposited data

How the results depend on the processing

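Lims2, Itga6, Itga4 and Itgb1 kept direction and call under all 13 alternative fits, with log2 fold changes of 2.93 to 3.17 for Lims2, 1.01 to 1.10 for Itga6, -2.61 to -2.49 for Itga4 and 0.13 to 0.21 for Itgb1. Itgb1bp2 and Parva were not called in any of them. Itgav was called higher with the replicate block (0.26, adjusted p = 0.0441), DESeq2 (adjusted p = 0.0301), limma-voom (adjusted p = 0.0490) and without control replicate 3. No log2 fold change of a member changed sign. Among the other named genes, sign changes occurred only in genes that were not called under any setting and lay near 0. With library totals only, the log2 fold change was -0.020 for Rsu1, -0.046 for Taf10, -0.036 for Itgb3 and -0.0012 for Itga1. Fn1 was at 0.0062 without a filter and 0.0027 with at least 50 counts in 3 libraries. With each library left out, Taf10 ranged from -0.056 to 0.095, Itgb3 from -0.012 to 0.058 and Fn1 from -0.012 to 0.021. With the replicate block Ilk was not called (adjusted p = 0.0686) and Itga7 was called lower (adjusted p = 0.0405). The genes called numbered 4 to 7 of the members, with 7 without control replicate 3, 5 to 7 of the other subunits, 22 to 26 of the adaptors and 16 of the ligands with each library left out. Those fits called 49.7 to 58.3% of all tested genes. Same-numbered libraries had correlations of deviations of -0.0047, 0.022 and -0.13, and 1 of 6 libraries correlated best with its own number. Deviations from a mean of 3 libraries are tied to each other, so this check cannot decide whether the numbers pair libraries. With the longest coding transcript the difference in share, MCKO minus control, was -4.01 percentage points for Itga4, -10.5 for Itga5 and -1.92 for Itgav, against -2.42, -5.46 and -8.50 with the median length, because the lengths taken for Itgav differ. With each library left out the Lims2 share differed by 24.0 to 25.4 points, and the Itga6 share by 15.6 to 17.0. The lowest levels, such as Itgb7, are limited by depth.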

Other observations

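Of the adaptor genes, Bcar1, which encodes the scaffold p130Cas and was chosen after its values were seen, varied most within groups. It had 16.8, 36.6 and 39.1 normalised CPM in MCKO, against 13.2, 32.5 and 18.6 in controls, and its groups overlapped (log2 fold change 0.54, SE 0.503, edgeR adjusted p = 0.415). Of the 10 laminin, collagen IV and nidogen genes on the ligand list, 6 rose, among them Lama5, 2 fell, and Lama1 and Lama2 were not called. Of all tested genes, 29.3% were called higher and 29.1% lower. Nid1, which encodes the linker nidogen, rose to 344.6 ± 8.89 normalised CPM in MCKO, against 211 ± 1.17 in controls, while the laminin gamma chain gene Lamc1 fell to 408 ± 16.9 in MCKO, against 508 ± 12.2 in controls. The collagen IV genes Col4a1 and Col4a2 rose by 0.50 (SE 0.0383) and 0.59 (SE 0.0564). These genes were chosen after their values were seen.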
